A study of Mus musculus with 4 samples.

Results

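*Pcmtd1* was described by its strain-enriched histone regions in mouse embryonic stem (ES) cells. Members were all H3K27ac regions that the deposited annotation of either strain assigned to *Pcmtd1* as the gene of the nearest transcription start, and all H3K4me3 regions of either strain centred between 6.90 and 7.25 Mb of chromosome 1. This gave 23 regions of 31315 in all. Of these, 16 came from the 6126 regions of the NOD H3K27ac list, 1 from the 5525 regions of the B6 H3K27ac list, 6 from the 12077 regions of the NOD H3K4me3 list and 0 from the 7587 regions of the B6 H3K4me3 list.

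The ES cells came from embryos of the diabetes-prone NOD strain and of C57BL/6 (B6), a strain that does not develop diabetes, and were grown with the MEK and GSK3 inhibitors known as 2i. Each strain and mark had 1 ChIP-Seq library, so there were 4 libraries and no replicates, and no test between the strains was possible. The labels name no cell line, genotype, sex or embryo age for these libraries. The background of each call was the other strain's library, so the strain in which a member region was stronger was fixed by its list and is no result.

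*Pcmtd1* encodes a protein related to PCMT1, the methyltransferase that starts the repair of aged isoaspartyl residues in proteins. The PCMTD1 protein binds the same methyl donor and also carries a motif through which it contacts the Elongin and Cullin subunits of a ubiquitin ligase. Acetylation of histone H3 at lysine 27 (H3K27ac) is found at active enhancers and promoters, trimethylation at lysine 4 (H3K4me3) chiefly at active promoters, and long or very strong H3K27ac domains are called super enhancers.

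In the RefSeq annotation of mm10, *Pcmtd1* lies at chr1:7087077-7173628 on the plus strand and is 86.6 kb long. Its curated transcript starts at position 7088920 and has 6 exons and 5 introns. A further 3 transcripts are models, and the model start lies 1.84 kb upstream of the curated start. All distances here are from the curated start. The gene stands in a sparse stretch. The start of *St18*, the protein-coding neighbour upstream, is 359 kb away, and the start of *Sntg1*, the neighbour downstream, is 2211 kb away. The stretch nearest to the *Pcmtd1* start is therefore 1.28 Mb long, and any H3K27ac region in it was assigned to *Pcmtd1*.

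The reference sequence of 4 regions is shown because they are the narrow super enhancers and the H3K4me3 region with the most tags, on which the results below turn. Each is the middle 300 bases of the region in mm10, on the plus strand, with every CpG in capitals. The first is from the H3K27ac region 19.4 kb upstream of the start (chr1:7069418-7069717), the second from the H3K27ac region in intron 2 (chr1:7125479-7125778), the third from the H3K4me3 region, also in intron 2 (chr1:7128690-7128989), and the fourth from the H3K27ac region 118 kb downstream (chr1:7206726-7207025). They come from the reference genome, not from NOD DNA.
Upstream H3K27ac region: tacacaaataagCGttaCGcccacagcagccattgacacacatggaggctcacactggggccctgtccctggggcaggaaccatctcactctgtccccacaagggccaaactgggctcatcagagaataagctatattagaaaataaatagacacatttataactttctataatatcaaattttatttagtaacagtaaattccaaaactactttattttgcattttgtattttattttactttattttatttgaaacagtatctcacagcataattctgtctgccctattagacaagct
Intron 2 H3K27ac region: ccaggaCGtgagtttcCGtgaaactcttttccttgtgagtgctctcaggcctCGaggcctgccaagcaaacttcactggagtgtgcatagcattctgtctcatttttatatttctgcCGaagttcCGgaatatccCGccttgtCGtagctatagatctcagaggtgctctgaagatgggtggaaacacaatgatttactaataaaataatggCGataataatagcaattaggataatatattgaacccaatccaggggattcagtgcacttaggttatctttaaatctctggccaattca
Intron 2 H3K4me3 region: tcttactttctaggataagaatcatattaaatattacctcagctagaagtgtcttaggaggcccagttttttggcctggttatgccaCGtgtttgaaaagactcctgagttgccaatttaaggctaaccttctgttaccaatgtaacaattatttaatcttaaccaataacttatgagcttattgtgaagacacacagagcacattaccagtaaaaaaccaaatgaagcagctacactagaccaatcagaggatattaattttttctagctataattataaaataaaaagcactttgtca
Downstream H3K27ac region: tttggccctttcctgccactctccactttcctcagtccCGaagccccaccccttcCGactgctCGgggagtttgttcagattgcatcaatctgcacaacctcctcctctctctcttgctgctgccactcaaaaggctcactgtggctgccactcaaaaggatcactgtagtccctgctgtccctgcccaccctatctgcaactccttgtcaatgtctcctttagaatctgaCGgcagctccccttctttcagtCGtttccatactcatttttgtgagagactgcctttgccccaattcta

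The 4 stretches differed in CpG content. The intron 2 H3K27ac stretch held 8 CpGs, the downstream stretch 5, the upstream stretch 2 and the intron 2 H3K4me3 stretch 1. The median over the middle 300 bases of all NOD regions was 3 for either mark.

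The first question was how H3K27ac at *Pcmtd1* compared between the strains. The NOD list held 16 *Pcmtd1* regions with a summed score of 1123, and the B6 list held 1 region with a score of 9.84. The score is the H3K27ac signal of the own strain minus that of the other, on a scale the files do not state, and it is an average over the pool of cells, in which more cells with the mark and more mark per cell cannot be told apart. The lists give no B6 level for the NOD regions, so the ratio of the strains at these regions was not known for H3K27ac. The B6 region was 262 bp wide at chr1:7586813-7587075, 498 kb downstream of the start, and ranked 3873 of 5525 by score in its list. It overlapped no *Pcmtd1* region of NOD.

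*Pcmtd1* had more NOD H3K27ac regions than any other gene. A gene with a NOD region had a median of 1, and 3802 of 4760 such genes (79.9%) had exactly 1. The share of these genes with 16 or more was 0.021%, which is *Pcmtd1* alone. The next genes were *Zfp369* with 10, followed by *2410141K09Rik*, *5730507C01Rik* and *Gm10324* with 9 each. *Pcmtd1* was taken up because of this count, so it is a description and not a test. By summed score *Pcmtd1* ranked 4, behind *Zfp970* (1990), *Gm14296* (1724) and *Smarca5-ps* (1550). In the B6 list the gene with the most regions was *Magi1*, with 20 in B6 and 2 in NOD.

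**Figure D1:**
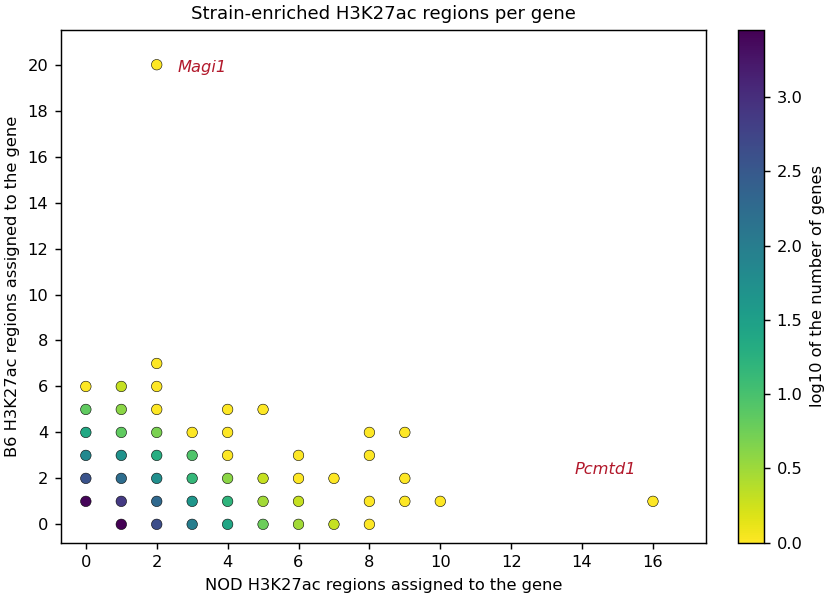
Number of NOD-enriched (x axis) and B6-enriched (y axis) H3K27ac regions assigned to each gene. Each point is a combination of both counts, coloured by the log10 of the number of genes that share it. *Pcmtd1* lies at 16 NOD and 1 B6 regions, and *Magi1* at 2 NOD and 20 B6 regions.

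The length of the stretch assigned to a gene differs between genes. There were 276 genes with an assigned stretch of at least 1 Mb, and their median was 0 NOD regions. *Pcmtd1* led these genes with 16, ahead of *Cdh9* with 7. Per Mb, *Pcmtd1* had 12.5 NOD regions over its stretch, against 2.11 per Mb of chromosome 1 and 2.25 per Mb of all chromosomes. The highest density of another gene with so long a stretch was 4.43 per Mb. Among the 30 genes with 5 or more NOD regions and a curated start, however, *Pcmtd1* ranked only 18 by density, and their median was 15.1 per Mb. For B6 the density over the same stretch was 0.778 per Mb, against 2.03 per Mb of all chromosomes.

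The 16 NOD regions extended over 1.11 Mb but were not spread evenly. Upstream of the gene lay 4 regions with 46.9% of the summed score, in the gene 3 regions with 15.3%, and downstream 9 regions with 37.9%. Of the 16, 9 lay in the 350 kb window used for H3K4me3, and these held 75.7% of the summed score.

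The 4 upstream regions were all super enhancers, here a region with a deposited slope value of at least 1. The farthest, at chr1:6984692-6989915, was 102 kb from the start and had a score of 103. At chr1:7012379-7021295, 72.1 kb upstream, lay the widest *Pcmtd1* region (8916 bp), which also had the highest score (161). Closer to the gene, chr1:7047125-7053158, 38.8 kb upstream, had a score of 101. These 3 were the only *Pcmtd1* regions of at least 5 kb (3 of 16, against 9.21% of all NOD regions). The fourth, at chr1:7068988-7070146 and 19.4 kb upstream, was much narrower (1158 bp) but had nearly the same score as the widest region (161). Per kb its score was 139, against 18.1 for the widest region.

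In the gene, the 3 regions were all intronic and narrow. The region at chr1:7125477-7125780 in intron 2, 36.7 kb from the start, had a score of 144 over 303 bp. This is 474 per kb, which ranked 6 of 6126 in the NOD list, and the region is a super enhancer by its slope value although its width is close to the list median of 293 bp. The other intron 2 region, at chr1:7139378-7139670, had a score of 17.1. The third, chr1:7154944-7155177, in intron 3 of the curated transcript and partly over an exon of a model transcript, had a score of 10.7. No H3K27ac region of either strain was listed over the curated start.

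Downstream, 1 of 9 regions was a super enhancer. This was chr1:7205946-7207804, 118 kb from the start and beyond the end of the gene, with a score of 145 over 1858 bp. Farther out, chr1:7497989-7502461, 411 kb from the start, had a score of 80.2 and lay just below the slope threshold (0.896), whereas the farthest upstream region lay just above it (1.01). The regions 583 kb and 1008 kb downstream had scores of 63.1 and 52.0. The remaining 5 regions between 183 and 303 kb and near the gene end had scores from 6.87 to 32.4. The downstream group thus held the lowest-scoring *Pcmtd1* regions, but the regions 411, 583 and 1008 kb downstream ranked 614, 776 and 922 of 6126.

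In all, 6 of the 16 regions were super enhancers, against 8.16% of all NOD regions, and they held 72.6% of the summed *Pcmtd1* score. They ranked between 247 and 468 of 6126. The label rests on the slope value and does not follow the score alone. Over the whole NOD list, the lowest score of a region with this label was 0.423, at rank 6108. No other gene had as many NOD super enhancers, and *Magi1* had 8 in the B6 list. *Zfp970* had 5, *2410141K09Rik* had 4, and 33 of the 456 genes with a NOD super enhancer had 2 or more. The median score of the 16 regions was 57.6, against 13.0 for the whole NOD list, and the median width was 924.5 bp against 293 bp. The highest *Pcmtd1* score was still far below the highest of the list (1045). The 10 other regions ranked between 614 and 5477. By score per kb, the compact intron 2 region ranked 6, as given above.

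**Figure D2:**
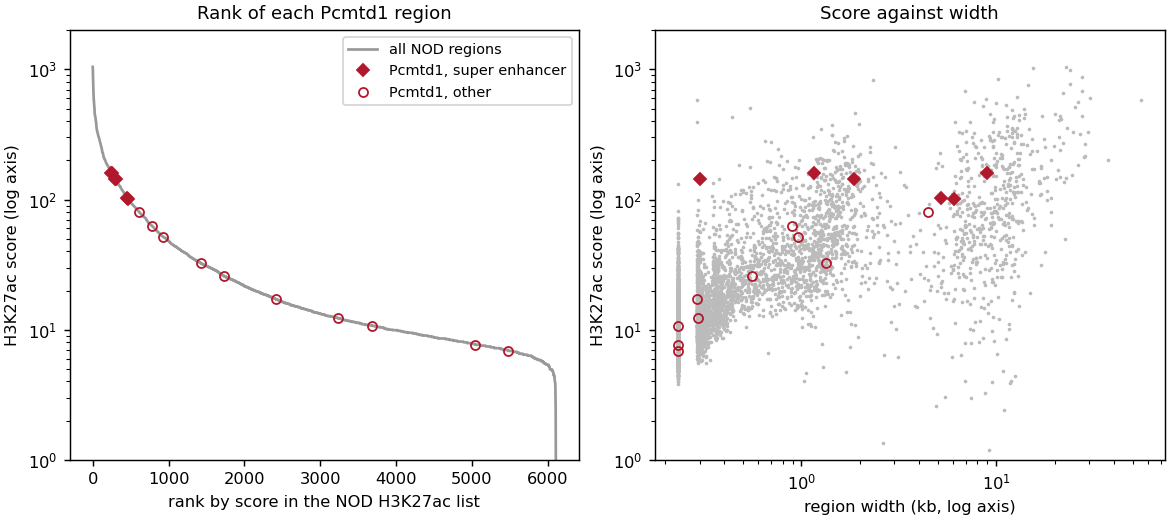
Left, score (log axis) against rank for all NOD H3K27ac regions (grey line) with the 16 *Pcmtd1* regions in red. Right, score against region width (both log axes) for the same regions. Filled diamonds are super enhancers, and scores under 1 are not drawn. The 6 super enhancers rank between 247 and 468, and the intron 2 region of 303 bp lies above most other regions of that width.

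By comparison, smaller numbers of NOD regions were found at 3 other genes. *Fcgr3*, an Fc receptor gene, had 1 NOD region with a score of 81.6 and 0 in B6. *Igfbp2*, which encodes a binding protein of insulin-like growth factors, had 4 NOD regions with a summed score of 95.5 and 1 B6 region with a score of 22.1. The study named both genes beside *Pcmtd1* among NOD super enhancers. By the slope rule used here, *Fcgr3* had 1 NOD super enhancer and *Igfbp2* had 0. *Dhrs7*, a gene of the short-chain dehydrogenase family, was chosen for a high-scoring domain in B6, so its direction is no result. It had 0 NOD regions and 2 B6 regions with a summed score of 672.

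For H3K4me3, the window held 6 NOD regions and 0 B6 regions. Windows of the same length laid end to end over the genome held at least as many NOD regions in 4.83%, no B6 region in 45.8%, and both in 1.02%. The window was chosen with earlier results of these data known, so these shares describe it and are no test. Over the whole 1.28 Mb stretch, the NOD list had 8 H3K4me3 regions, 6.23 per Mb against 4.43 per Mb of all chromosomes. The B6 list had 1 there, 0.778 per Mb against 2.78. The NOD library was the deeper, with 22750449 tags against 14791364 tags in B6, a ratio of 1.54, and all folds were scaled by these totals. Intervals are exact 95% intervals that cover the counting of tags in these 2 libraries only.

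Upstream of the gene, chr1:7011155-7011655, centred 77.5 kb from the start, held 26 tags in NOD and 1 in B6. The scaled fold was 16.9 (2.78 to 693), and the single B6 tag left the upper end of its interval wide. This region ended 724 bp before the widest H3K27ac region.

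A pair of regions flanked the curated start, where a promoter mark would be looked for. The first, chr1:7087610-7088110, lay between 1.31 and 0.81 kb upstream, between the model start and the curated start. It held 30 tags in NOD and 4 in B6, and its fold of 4.88 (1.72 to 19.1) was the lowest of the 6. The second, chr1:7090699-7091336, lay in intron 1, between 1.78 and 2.42 kb downstream. It held 45 tags in NOD and 3 in B6, with a fold of 9.75 (3.13 to 49.1). The intervals of these 2 regions overlapped widely, so their folds were not distinguishable at this depth. Between them, no strain-enriched region was listed over the curated start itself, and how much of the mark both strains carried there was not known from these lists.

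Among the 6 listed H3K4me3 regions, the region with the most tags lay in intron 2. There, chr1:7127524-7130154 was 2630 bp wide and held 390 tags in NOD and 15 in B6, 16.9 times as many after scaling (10.1 to 30.5). By NOD tags it ranked 101 of 12077. Per 10000000 tags of each library, this was 171 in NOD and 10.1 in B6. Its neighbour at chr1:7125081-7125972, 1.55 kb before it, held 39 tags in NOD and 0 in B6. Against a floor of 3 tags the fold was 8.45, and the lower limit of the counting interval was 6.55. This neighbour was the only 1 of 6 without a B6 tag, against 34.9% of all NOD regions.

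The last region, at chr1:7206025-7207359, lay 118 kb downstream of the start, outside the gene. It held 196 tags in NOD and 14 in B6, 9.10 times as many (5.30 to 17.0), and ranked 329 of 12077 by NOD tags. This region and the stronger intron 2 region were the only 2 of 6 of at least 1 kb, against 6.91% of all NOD regions, and they were nearly equal in tags per kb (147 and 148). Over the 6 regions together 726 tags were counted in NOD and 37 in B6, which gave a pooled fold of 12.8 (9.17 to 18.3). All 12077 NOD regions together held 604760 NOD and 48422 B6 tags before scaling, so a high ratio is common to the whole list. The median was 42 NOD tags per region, against 30 over the whole NOD list. Every listed region had to reach 4-fold in these same tags, so the direction was fixed and the size of the folds was selected too. The folds can therefore overstate the difference, and the intervals do not allow for this.

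**Figure D3:**
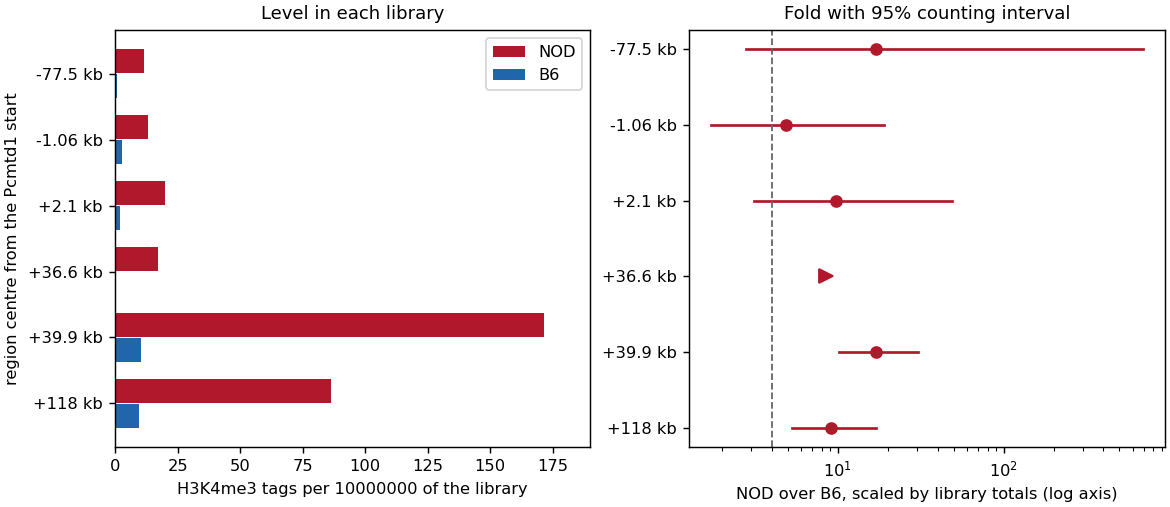
Left, H3K4me3 tags per 10000000 of the library in NOD (red) and B6 (blue) for the 6 NOD regions of the window, by distance of the region centre from the *Pcmtd1* start. Right, fold of NOD over B6 (log axis) with exact 95% counting intervals. The arrow is the fold against a floor of 3 tags for the region with 0 B6 tags, drawn without its interval (lower limit 6.55). The dashed line is the 4-fold requirement of the list. The region 39.9 kb downstream, in intron 2, has the highest level, with 171 in NOD and 10.1 in B6.

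Next, both marks were compared by position. Of the 16 H3K27ac regions, 2 shared at least 1 bp with a NOD H3K4me3 region, against 9.84% of all NOD H3K27ac regions. The same pairs made 2 of the 6 H3K4me3 regions, against 5.81% of all NOD H3K4me3 regions. One pair was in intron 2, where the compact H3K27ac region lay wholly within the H3K4me3 region without B6 tags and shared 303 bp. The other was 118 kb downstream, where the H3K4me3 region lay wholly within the H3K27ac super enhancer and shared 1334 bp. The highest H3K27ac scores and the most H3K4me3 tags were only partly at the same listed regions. The lists leave out regions alike in both strains, so a missing overlap does not show that a mark was absent or weak. The intron 2 region with the most H3K4me3 tags overlapped no listed H3K27ac region and was 1744 bp from the nearest, and the 4 upstream super enhancers overlapped no listed H3K4me3 region. The region 118 kb downstream was the only site of the locus with a super enhancer and more than 100 H3K4me3 tags.

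**Figure D4:**
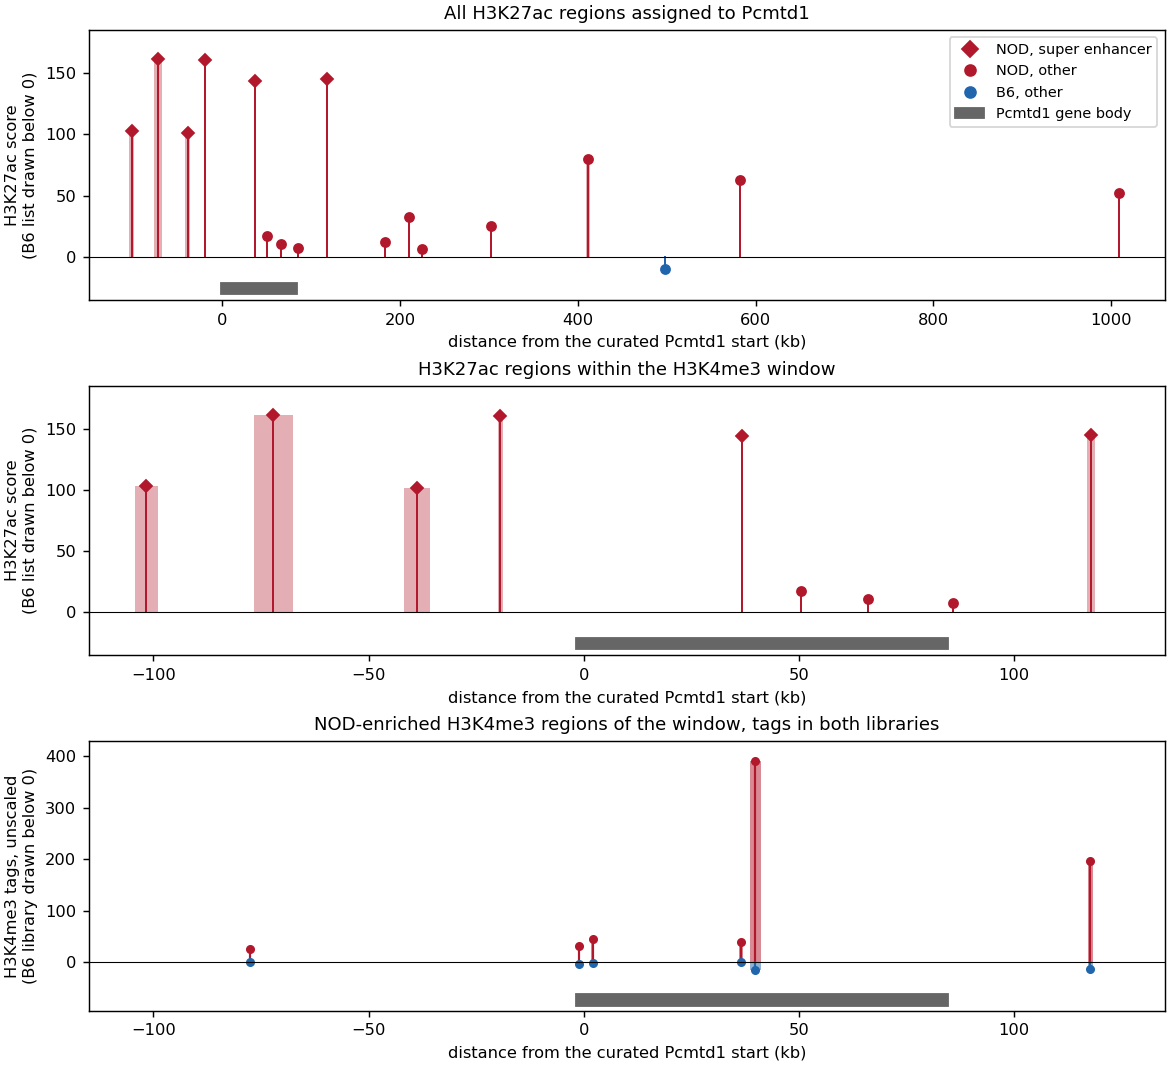
Position of all member regions by distance from the curated *Pcmtd1* start (kb). Top, scores of the 16 NOD (red, up) and 1 B6 (blue, down) H3K27ac regions. Middle, the H3K27ac regions near the gene, with shading that shows the width. Bottom, unscaled tags in the NOD (up) and B6 (down) libraries of the 6 NOD H3K4me3 regions. Diamonds are super enhancers and the grey bar is the gene. The 4 upstream regions score between 101 and 161, and the H3K4me3 regions in intron 2 and 118 kb downstream hold 390 and 196 NOD tags.

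The sequence under the regions was then examined. By the deposited annotation, 4 of the 16 NOD H3K27ac regions were centred in ERVK repeats, a family of endogenous retroviruses, against 11.3% of all NOD regions. These were the compact intron 2 region (in ERVB2_1A-I_MM-int), the region 210 kb downstream (in MMERVK9E_I-int), the region 583 kb downstream (in ERVB7_3-LTR_MM) and the region 1008 kb downstream (in RLTR9D). A further 3 were centred in L1 elements, which are retrotransposons without long terminal repeats, against 4.82%. These were the farthest upstream super enhancer and the regions 85.8 and 183 kb downstream. Of the summed score, 25.9% lay in the ERVK regions. The remaining 9 regions, with 63.1% of the summed score, were not centred in either family or in another repeat.

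The strongest regions differed in how much repeated sequence they held. The super enhancer 102 kb upstream was soft-masked as repeat over 90.9% of its bases, the H3K4me3 region with the most tags over 70.2%, and the compact intron 2 H3K27ac region over 57.6%. Copies of these repeats can differ in sequence, so the words of 50 bases (the read length) were also counted. The count used the reference genome, not NOD DNA, so copies of a word present only in NOD were not seen. Of all such words in the compact intron 2 H3K27ac region, 100% occurred once in the reference chromosomes, counting both strands. The share was 99.8% for the narrow upstream super enhancer and 98.3% for the super enhancer 118 kb downstream. It was lower in the widest and highest-scoring region, at 90.3%, and in the super enhancer 102 kb upstream, at 86.4%, and it was 97.3% in the super enhancer 38.8 kb upstream. The lowest share among the 16 regions was 71.8%, in the L1 region 183 kb downstream, which had a score of 12.2. Among the H3K4me3 regions it was lowest in the stronger intron 2 region, at 83.1%, and 100% in both regions that flank the start. The median over all NOD regions was 100% for either mark. Soft-masked repeat bases made up a median of 42.9% of the 16 H3K27ac regions, against 22.2% over the whole NOD list, and the median GC content was 41.1% against 45.7%.

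A fixed list of motifs was searched in the middle 300 bases of the 16 H3K27ac and the 6 H3K4me3 regions of NOD, on both strands. Some regions are narrower than 300 bases, and there the searched bases ran beyond the region. The Pou5f1 octamer (ATGCAAAT), the Esrrb motif (TCAAGGTCA) and the Klf motif (CCACACCC) were found in 0 of 16, against 2.35%, 1.35% and 3.02% of all NOD H3K27ac regions. The short Sox motif (ACAAAG) was found in 3 of 16, against 26.8%, and the E-box (CACGTG) in 1 of 16, against 4.33%. Of the 6 H3K4me3 regions, 2 held the Sox motif, against 23.9% of all NOD H3K4me3 regions, and 1 held the E-box, against 4.28%. The octamer, Esrrb and Klf motifs were found in 0 of 6, against 1.66%, 0.787% and 2.55%. The printed intron 2 H3K4me3 stretch held an E-box and a Sox motif. No motif of this list contains another, and a missing match says only that these letters are not in that window.

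Other genes of the same protein family and its ubiquitin ligase partners were checked by position, with regions in the gene body or within 5 kb of a start. *Pcmtd1* was left out of the counts because it was chosen for its NOD regions. Of the 8 other genes, 3 had a NOD H3K27ac region (against 15.9% of protein-coding genes) and 1 had a B6 H3K27ac region (13.9%). A NOD H3K4me3 region was found at 2 of 8 (24.2%) and a B6 H3K4me3 region at 2 of 8 (16.3%). *Pcmtd1* itself had 3 NOD H3K27ac and 4 NOD H3K4me3 regions by this rule. *Pcmt1*, the repair methyltransferase, had 1 NOD H3K27ac and 2 NOD H3K4me3 regions and 0 in B6. *Pcmtd2*, the closest relative of *Pcmtd1*, had 1 B6 H3K4me3 region and 0 in the other lists. Among the ligase genes, the scaffold *Cul2* had 2 NOD H3K27ac regions and the RING subunit gene *Rbx1* had 1. The scaffold *Cul5* had 1 B6 H3K27ac and 1 NOD H3K4me3 region, and the Elongin B gene *Elob* had 1 B6 H3K4me3 region. *Eloc* and *Rnf7* had 0 in all 4 lists. The family thus showed no common direction by these counts.

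The neighbours of *Pcmtd1* were checked in the same way. *St18*, a zinc finger transcription factor gene, had 0 regions in all 4 lists. Of the 6 pseudogenes in the window, *Gm26983* and *Gm9826* each had 1 NOD H3K27ac region within 5 kb, both of them counted above for *Pcmtd1*. *Sntg1*, which encodes a syntrophin, had 1 NOD H3K27ac region with a score of 5.41, 6 NOD H3K4me3 regions and 2 B6 H3K4me3 regions. The high scores were thus found between these neighbours and not in them. Markers of ES cells could be checked only in part, because these lists leave out regions that do not differ. Of 8 marker genes, 5 had a NOD H3K4me3 region (against 24.2% of protein-coding genes) and 3 had a B6 H3K4me3 region (against 16.3%). *Pou5f1*, *Sox2* and *Zfp42* had NOD H3K4me3 regions and 0 in B6, *Esrrb* and *Tfcp2l1* had regions in both lists, and *Dppa3* had a B6 region only. *Dppa3* was also the 1 marker of 8 with a NOD H3K27ac region (against 15.9%), and 0 of 8 had one in B6 (against 13.9%). *Nanog* and *Klf4* had 0 in all 4 lists, which says nothing about their expression. A region counted for a marker lay in the gene body or within 5 kb of a start, not necessarily at the promoter. At the *Pou5f1* promoter, the study described both marks as similar in both strains.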

How the data were processed

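ChIP-Seq was carried out for H3K4me3 and H3K27ac on B6 and NOD ES cells, with 1 library per strain and mark and, per the labels, 25000000 to 30000000 single-end reads of 50 bp. According to the study's methods and the file headers, the authors mapped reads to mm10 and called regions with HOMER against the library of the other strain. The submitters' processing notes name CASAVA 1.8.2, STAR 2.2.0c, HOMER and mm9. The deposited start distances of all 17 H3K27ac members equalled those in the mm10 annotation (GRCm38.p6, RefSeq) within 2 bp, so mm10 was used.

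The deposited count of H3K4me3 tags was whole for B6. For NOD the deposited signal was scaled to the B6 total, and it was scaled back to NOD tags (largest distance from a whole number 0.0769). The deposited H3K27ac score is the difference of both strains' signals, and those files hold no counts, so the depth of these libraries is unknown. The authors' fold and p-value columns compare the strains and were not used. No columns of other samples were found.

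Folds were ratios of tags scaled by library totals with exact conditional binomial (Clopper-Pearson) intervals, which cover counting error only. A value of 0 was replaced by a floor of 3 tags. The assigned stretch of a gene ended halfway to the next curated RefSeq start. Overlap needed 1 bp. Super enhancers were regions with a deposited slope value of at least 1 and a score above 0; the 5 highest regions of each list, where that column holds the region size, also met this. Sequences and their soft-masking came from RefSeq, without an entry for *Pcmtd1* in the promoter table. Python 3.11.15 with numpy 2.4.6, pandas 2.3.3, scipy 1.17.1 and numba 0.67.0 was used, and the overlap, interval and word functions were tested on simulated data. Named genes were *Pcmtd1*, its neighbours, the methyltransferase and Elongin list, the genes named by the study, and those with the most NOD regions. *Dhrs7* was added for its high-scoring domain in B6. *Gm14296*, *Smarca5-ps*, *Cdh9* and *Magi1* were named after their values were seen. The members and lists were chosen with earlier results of these data known.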

Additional observations from a re-analysis of the deposited data

How the results depend on the processing

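The number of NOD H3K27ac regions at *Pcmtd1* depended on how regions were assigned. It was 9 when the midpoint had to lie in the 350 kb window, 3 when it had to lie in the gene body or within 5 kb of a start, 6 with a slope value of at least 1, and 11 with a score of at least 20. The single B6 region was lost under each of these settings, which gave 0, and the summed B6 score was then 0 with a score of at least 20. The best rank of a *Pcmtd1* region in the NOD list was 247 by score and 6 by score per base pair, the latter held by the compact intron 2 region. With at least 50 tags, 2 NOD H3K4me3 regions remained in the window. Without scaling by library totals, the pooled H3K4me3 fold was 19.6. It was 9.93 without the region with the most tags. The direction was fixed by the lists, and the settings tried for the 0 B6 H3K4me3 regions of the window could only narrow that list, so neither bears on stability. No paired analysis was possible because each strain and mark had 1 library, so no replicate could be left out either. With 1 library per strain, differences between the strains and between the libraries cannot be told apart, and regions marked alike in both strains are not in the lists.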
